A study of Mus musculus with 7 samples.

Results

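The genes described here are 10 textbook transcriptional targets of p53, the tumour suppressor encoded by Trp53: Cdkn1a, Mdm2, Ccng1, Trp53inp1, Bax, Bbc3, Pmaip1, Plk2, Phlda3 and Zmat3. They were taken from a fixed list of symbols, looked up in the gene names of the authors' deposited table and joined by identifier to the read counts. All 10 were found among the 38924 genes of the count files, and all 10 passed the filter on low counts that left 16226 genes for testing. The libraries are messenger RNA sequencing of mouse fetal liver at 12.5 days post coitum, 3 from Pcbp2 knockout (replicates 3, 4 and 5) and 4 from wild type (replicates 1 to 4). The labels give genotype and age only; they name no knockout allele, strain, sex or litter. Nothing in the labels says that each library came from its own animal, so a p-value here is set by the library-to-library spread, part of which may be technical.

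p53 is a transcription factor that is kept scarce in unstressed cells and accumulates after DNA damage, ribosomal stress or other insults. It binds DNA as a tetramer, at pairs of a short palindromic half-site, and switches on genes that halt the cell cycle, promote apoptosis, repair DNA or restrain p53 itself. Fetal liver at this age is mostly a blood-forming organ, rich in dividing erythroid precursors, and p53 activation in such precursors is a known cause of anaemia in ribosome disorders. Pcbp2 encodes an RNA-binding protein with a preference for C-rich stretches.

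Promoter sequence was available for 7 of the 10 genes from RefSeq (build GRCm38.p6), as the 250 bases before each annotated start, and was searched for the consensus p53 half-site, a 10-base palindrome that reads the same on both strands. The 7 genes have 10 windows, 3 of them for Bbc3 and 2 for Cdkn1a. Of these 10 windows, 4 (the first of Cdkn1a and those of Mdm2, Ccng1 and Bax) held at least 1 match, against 7.13% of the 32851 promoter windows of the same length in the table. The first Cdkn1a window was 1 of 21 in that table (0.0639%) with a pair of matches that had 0 to 13 bases between them. No match was present in the windows of Plk2, Phlda3 or Bbc3 or in the second window of Cdkn1a, which says only that these letters are not in these windows. The 4 windows with a match are shown because a half-site is the element that p53 recognises, and the Plk2 window because Plk2 was the member that passed the test below. Sequences run 5′ to 3′ on the strand of the gene, and capitals mark each match.
Cdkn1a (chr17:29090729-29090978, plus strand): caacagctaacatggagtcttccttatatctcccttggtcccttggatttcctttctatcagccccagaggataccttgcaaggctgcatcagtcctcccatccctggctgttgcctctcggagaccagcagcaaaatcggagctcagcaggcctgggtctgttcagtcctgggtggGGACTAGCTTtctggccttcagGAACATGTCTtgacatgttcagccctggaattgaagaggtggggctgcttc
Mdm2 (chr10:117710759-117711008, minus strand): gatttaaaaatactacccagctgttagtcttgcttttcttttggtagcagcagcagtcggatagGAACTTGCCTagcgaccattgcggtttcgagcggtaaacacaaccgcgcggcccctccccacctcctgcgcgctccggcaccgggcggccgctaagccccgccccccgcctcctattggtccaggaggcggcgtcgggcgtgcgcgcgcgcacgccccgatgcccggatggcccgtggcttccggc
Ccng1 (chr11:40755287-40755536, minus strand): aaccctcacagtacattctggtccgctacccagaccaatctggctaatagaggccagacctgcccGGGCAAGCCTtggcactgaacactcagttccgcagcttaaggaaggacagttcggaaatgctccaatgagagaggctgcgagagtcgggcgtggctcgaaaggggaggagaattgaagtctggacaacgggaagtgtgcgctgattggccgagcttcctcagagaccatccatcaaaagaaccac
Bax (chr7:45466899-45467148, minus strand): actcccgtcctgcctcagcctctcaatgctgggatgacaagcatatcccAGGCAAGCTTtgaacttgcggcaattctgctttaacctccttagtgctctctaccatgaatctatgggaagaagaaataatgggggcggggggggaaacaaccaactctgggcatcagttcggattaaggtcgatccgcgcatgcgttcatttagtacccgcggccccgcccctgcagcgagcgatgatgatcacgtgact
Plk2 (chr13:110394794-110395043, plus strand): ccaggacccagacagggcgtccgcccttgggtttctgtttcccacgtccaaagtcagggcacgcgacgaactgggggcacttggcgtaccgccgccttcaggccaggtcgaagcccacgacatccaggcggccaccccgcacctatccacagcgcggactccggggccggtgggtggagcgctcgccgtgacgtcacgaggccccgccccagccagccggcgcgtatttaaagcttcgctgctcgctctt

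In the Cdkn1a window shown the matches began 73 and 51 bases before the upstream annotated start. The other Cdkn1a window, with no match, belongs to a start farther downstream (chr17:29093519-29093768). In Mdm2, Ccng1 and Bax the single match began 186, 185 and 201 bases before the start. Positions given with each gene below are those of GENCODE M21 on GRCm38, from the first to the last exon base. A match to the consensus is a description of the sequence and was not set against any binding data.

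The genotype labels were checked on Pcbp2 itself, which had 74, 63 and 78 reads in the knockout libraries, against 4868, 13479, 12692 and 14682 reads in the wild-type libraries (edgeR adjusted p = 1.29e-05). Reads assigned to genes numbered from 31898339 to 44544889 per library, and a gene with no reads could still have had up to 3, or 0.0662 to 0.102 CPM, from counting error alone. CPM denotes counts per 1e+06 reads, scaled by the TMM method. In CPM, Pcbp2 stood at 1.39 to 2.24 in knockout, at 165 in wild type replicate 1 and at 329 to 347 in the other wild-type libraries. The labels give no reason for the lower value in wild type replicate 1. Erythroid markers fell in the knockout (10 of 11 listed markers, beside 3.43% of all genes tested), with a summed level of 11880 to 15810 CPM in knockout and 49610 to 88850 CPM in wild type. Hepatoblast markers were present in every library, and 0 of 8 passed the test in edgeR, with 1 at an unadjusted p under 0.05. Over all genes tested, 5.02% passed and 21.8% had an unadjusted p under 0.05.

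Of the 10 p53 targets, 1 rose in the Pcbp2 knockout and 0 fell (edgeR quasi-likelihood test, Benjamini-Hochberg adjusted p under 0.05 over all 16226 genes). Over all genes tested, 1.59% were called higher, 3.43% lower and 5.02% in either direction, so the members' count is near what the whole table gives. The gene that rose was Plk2. DESeq2 and limma-voom called the same count, 1 higher and 0 lower, and 1 member had an unadjusted p under 0.05, where 21.8% of all genes did. The median log2 fold change of the members was 0.05, beside 0.01 for all genes tested, with 6 members above 0 and 4 below.

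**Figure D1:**
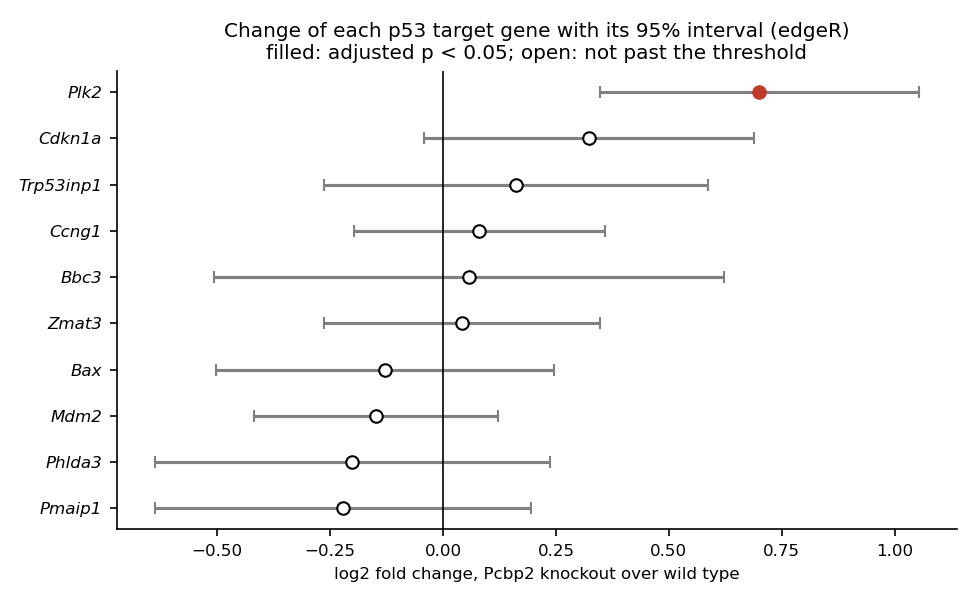
Log2 fold change of the 10 p53 target genes, Pcbp2 knockout over wild type, with 95% intervals from the edgeR fit on 3 knockout and 4 wild-type libraries; the filled point passed an adjusted p of 0.05. Plk2 stands at 0.70 with an interval from 0.35 to 1.05, and the intervals of the other 9 genes include 0.

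Plk2 (chr13:110395046-110400844, plus strand) encodes a polo-like kinase that p53 induces and that acts on centrioles in the cell cycle; growth factors and other stimuli induce it as well. In CPM, Plk2 stood at 54.6, 64.5 and 64.5 in the 3 knockout libraries and at 33.04, 50.7, 33.3 and 33.5 in the 4 wild-type libraries. The groups did not overlap, where 9.83% of all genes tested had every knockout library above every wild-type library, but wild type replicate 2 stood close to the lowest knockout library. The means were 61.2 ± 5.70 CPM (SD, n = 3) in knockout and 37.6 ± 8.73 CPM (SD, n = 4) in wild type, a log2 difference of 0.70 ± 0.16 (SE; edgeR adjusted p = 0.0348), or 1.62-fold with a 95% interval of 1.27 to 2.08. The call ended when 1 of 5 libraries was omitted: the edgeR adjusted p became 0.0994 (knockout replicate 4), 0.146 (knockout replicate 5), 0.0797 (wild type replicate 1) or 0.0937 (each of wild type replicates 3 and 4). Without wild type replicate 2 the log2 difference was 0.87 (edgeR adjusted p = 0.00225). In the authors' deposited table the log2 fold change of Plk2 was 0.68 with a standard error of 0.17 and an adjusted p of 0.00130.

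Markers of some other cell types also differed between the groups. Of 7 endothelial markers 3 rose (Pecam1, Cdh5 and Emcn), beside 1.59% of all genes tested. The summed level of the 7 ran from 249 to 317 CPM in knockout and from 165 to 231 CPM in wild type. Of 8 heart muscle markers 3 rose (Myh6, Nppa and Tnni3), beside the same 1.59%, with sums of 75.6 to 354 CPM in knockout and 69.2 to 128 CPM in wild type. Endothelial sums, like Plk2, separated the groups, and wild type replicate 1 had the lowest endothelial sum and the lowest Plk2 of the 7 libraries. Knockout replicate 3 had the highest endothelial and heart sums of the 7 libraries and the lowest Plk2 of the knockout libraries. The heart sum of knockout replicate 4 lay within the wild-type range. Wild type replicate 2, the wild-type library highest in Plk2, also had the highest summed mesenchyme markers (3438 CPM), skeletal muscle markers (63.4 CPM) and neural crest and adrenal markers (25.9 CPM) of the 7 libraries. Mesenchyme sums were otherwise 2236 to 2574 CPM in knockout and 2328 to 2794 CPM in wild type. Of the 8 markers 1 was called higher (Acta2) and 1 lower (Lum), beside 1.59% and 3.43% of all genes tested. The part of these cell types in the Plk2 difference was not tested, and in whole tissue fewer cells of a type and less RNA per cell cannot be told apart.

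The genes whose profile over the 7 libraries lay nearest to that of Plk2 were sought among the 11255 other genes that averaged 5 CPM or more, and predicted or clone names were passed over. The measure was the root mean square difference in log2(CPM + 0.5) after centring each gene on its mean. The 5 nearest were Acta2 (0.0950), Tbx3 (0.0996), Mark1 (0.106), Msi1 (0.110) and Bmp4 (0.120). Acta2, the smooth muscle actin of stellate and mural cells, had 134.5, 134.5 and 133 CPM in knockout and 75.3, 119, 78.3 and 82.8 CPM in wild type.

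Cdkn1a (chr17:29090976-29100727, plus strand), the cyclin-dependent kinase inhibitor p21 and the main effector of p53-dependent cell cycle arrest, did not pass the test. Cdkn1a had 8.83, 10.9 and 10.5 CPM in knockout and 7.72, 10.1, 6.51 and 7.84 CPM in wild type. Wild type replicate 2 lay within the knockout range, and the other 3 wild-type libraries lay below it. The means were 10.1 ± 1.08 CPM (SD, n = 3) in knockout and 8.04 ± 1.49 CPM (SD, n = 4) in wild type, with a log2 difference of 0.32 ± 0.16 (SE; edgeR adjusted p = 0.285). The 95% interval of the fold ran from 0.971 to 1.61. An overlapping transcript in the current annotation, AC167363.2, lies on the opposite strand, shares 273 exon bases with Cdkn1a and is no row of the count files. Over 15 alternative settings the log2 difference stayed between 0.23 and 0.46 and the adjusted p between 0.107 and 0.541.

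The 2 members that damp p53 or act at its feedback loop had small differences. Mdm2 (chr10:117688875-117710758, minus strand), the ubiquitin ligase that degrades p53 and is itself a p53 target, had 48.5, 44.2 and 45.9 CPM in knockout and 61.4, 44.9, 52.7 and 45.8 CPM in wild type. Its log2 difference was -0.15 ± 0.12 (edgeR adjusted p = 0.523), and wild type replicates 1 and 3 stood above the rest. Ccng1 (chr11:40748552-40755311, minus strand), cyclin G1, which recruits a phosphatase to Mdm2, had 119.8, 86.9 and 108 CPM in knockout and 87.5 to 112 CPM in wild type, a log2 difference of 0.08 ± 0.13 (edgeR adjusted p = 0.755). For both genes the 95% interval of the difference lay within 1.5-fold in either direction, from 0.749 to 1.09 for Mdm2 and from 0.872 to 1.28 for Ccng1.

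The pro-apoptotic members gave no call. Bax (chr7:45461697-45466898, minus strand), the pore former of the mitochondrial outer membrane, had 32.8, 55.1 and 44.1 CPM in knockout and 40.6, 46.3, 50.4 and 55.2 CPM in wild type (log2 difference -0.13 ± 0.17, edgeR adjusted p = 0.706). Bbc3 (chr7:16308393-16318205, plus strand), the BH3-only protein Puma, had 1.91, 3.86 and 2.45 CPM in knockout and 2.47, 2.64, 2.49 and 2.97 CPM in wild type (log2 difference 0.06 ± 0.25, edgeR adjusted p = 0.923). Its knockout values spread on both sides of the wild-type range, with a coefficient of variation of 36.8% in knockout and 8.68% in wild type. Pmaip1 (chr18:66458533-66465565, plus strand), the BH3-only protein Noxa, had 3.54, 3.88 and 3.02 CPM in knockout and 4.33, 3.51, 4.65 and 3.77 CPM in wild type (log2 difference -0.22 ± 0.19, edgeR adjusted p = 0.535). Bbc3 and Pmaip1 rest on 63 to 176 reads per library, and their 95% intervals ran from 0.704 to 1.54 in fold for Bbc3 and from 0.643 to 1.14 for Pmaip1. In the current annotation Bax shares 192 exon bases with the overlapping gene Gm45808 on the same strand, which is no row of the count files.

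The remaining members likewise did not pass. Phlda3 (chr1:135766119-135769136, plus strand), a pleckstrin homology protein that competes with Akt for membrane lipids, had 9.86, 17.7 and 14.5 CPM in knockout and 13.8, 19.2, 14.3 and 17.3 CPM in wild type (log2 difference -0.20 ± 0.20, edgeR adjusted p = 0.598). Trp53inp1 (chr4:11156431-11174379, plus strand), a stress protein that promotes p53 activity and autophagy, had 29.6, 19.4 and 26.6 CPM in knockout and 18.4 to 29.0 CPM in wild type (log2 difference 0.16 ± 0.19, edgeR adjusted p = 0.671). Zmat3 (chr3:32334792-32366014, minus strand), a zinc finger protein that binds RNA, had 14.9, 16.2 and 18.8 CPM in knockout and 14.1 to 19.2 CPM in wild type (log2 difference 0.04 ± 0.14, edgeR adjusted p = 0.892). The groups overlapped for all 3. Of the 10 members, 4 had an interval within 1.5-fold of no change in either direction (Mdm2, Ccng1, Bax and Zmat3), and 9 within 2-fold; the exception is Plk2. Smaller changes in the other genes lie within their intervals.

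**Figure D2:**
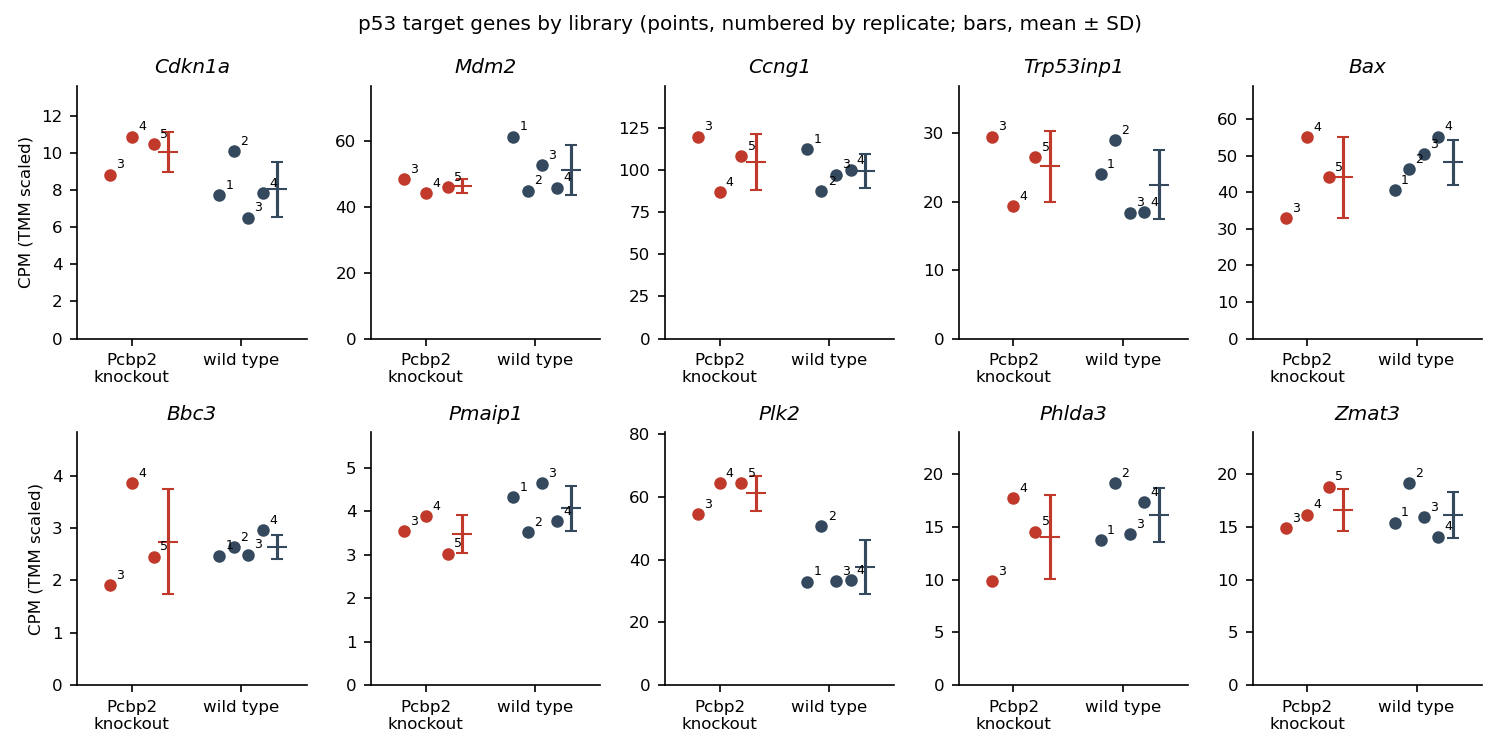
CPM (TMM scaled) of each p53 target gene in the 3 Pcbp2 knockout and 4 wild-type libraries; points are libraries numbered by replicate, and bars are mean ± SD. In the Plk2 panel the knockout libraries sit at 54.6 to 64.5 CPM, above all wild-type libraries, while in the other 9 panels the groups overlap.

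The members did not move together from library to library. In knockout replicate 3, Bax, Bbc3 and Phlda3 were at their lowest of the 7 libraries (-0.47, -0.38 and -0.58 from their means on the log2 scale), while Ccng1 and Trp53inp1 were at their highest (0.24 and 0.34 above). In knockout replicate 4 the pattern turned round: Bbc3 and Cdkn1a were at their highest (0.47 and 0.29 above), while Ccng1 and Mdm2 were at their lowest (-0.22 and -0.14). The highest values of the 10 members were spread over all 7 libraries, with 5 genes highest in a knockout library and 5 in a wild-type library. The median of the 10 centred values stayed between -0.05 and 0.14 in knockout and between -0.08 and 0.08 in wild type. Knockout replicate 3 was also the library with the highest heart muscle markers (354 CPM). Bax, Bbc3 and Phlda3 have the shortest exon lengths of the members, 1.58, 2.12 and 1.56 kb, where the others have 2.73 to 11.4 kb. The part of either in these shifts was not tested.

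**Figure D3:**
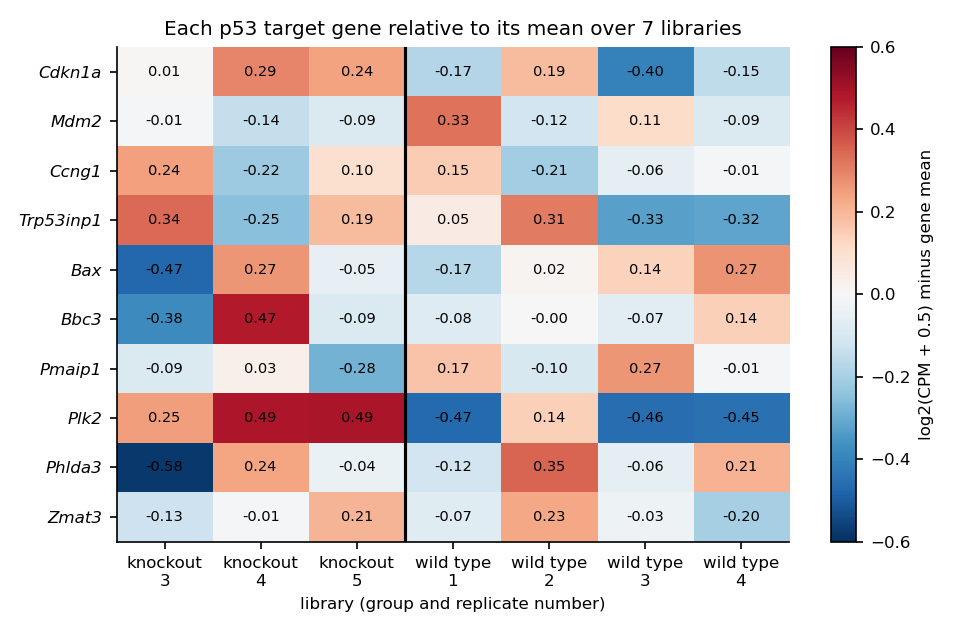
Level of each p53 target gene in each library as log2(CPM + 0.5) minus the gene's mean over 7 libraries, with knockout left of the line and wild type right of it. Bax, Bbc3 and Phlda3 are low in knockout replicate 3 and high in knockout replicate 4, and Plk2 is the row in which knockout is above wild type throughout.

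Per kilobase of annotated exon, Ccng1 (29.9 ± 4.74 CPM per kb in knockout, 28.3 ± 2.91 in wild type) and Bax (27.9 ± 7.05 in knockout, 30.5 ± 3.95 in wild type) were the most abundant members, and their ranges overlapped in both groups. In wild type Phlda3 (10.4), Mdm2 (10.1) and Plk2 (8.38 CPM per kb) followed with overlapping ranges between neighbours. In knockout Plk2 was the third most abundant at 13.6 ± 1.27 CPM per kb, and its range lay above that of Mdm2 (9.09 ± 0.427). Trp53inp1 (3.89 in knockout, 3.47 in wild type) and Cdkn1a (2.83 in knockout, 2.26 in wild type) came next, apart from each other in wild type and overlapping in knockout. Zmat3, Bbc3 and Pmaip1 had the lowest levels, between 1.24 and 1.49 CPM per kb as group means, and overlapped each other. Summed over the 10 members, expression was 324, 323 and 338.5 CPM in knockout and 315, 313, 296 and 299 CPM in wild type. Without Plk2 the sums were 269.6, 258 and 274 CPM in knockout and 282, 262, 263 and 266 CPM in wild type, and the groups overlapped.

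The genes that set p53 activity showed no change past the threshold. Of the 17 listed, 15 were tested and 0 passed in edgeR, DESeq2 or limma-voom, which called 5.02%, 10.5% and 4.65% of all genes. DESeq2 gave no adjusted p for Trp63, which therefore could not pass there. An unadjusted p under 0.05 in edgeR was found for 3, near the 21.8% of all genes. Trp53 had 103, 116 and 104 CPM in knockout and 87.1, 103, 108 and 103 CPM in wild type (log2 difference 0.10 ± 0.10, edgeR adjusted p = 0.588). Mdm4, the Mdm2 relative that inhibits p53, averaged 70.4 CPM in knockout and 56.1 CPM in wild type (log2 difference 0.33 ± 0.13, edgeR adjusted p = 0.168, but 0.0417 with total-count scaling). Atr, a kinase that signals stalled replication, averaged 71.4 CPM in knockout and 55.0 CPM in wild type (log2 difference 0.38 ± 0.12, edgeR adjusted p = 0.105, but 0.0235 with total-count scaling). For both Mdm4 and Atr every knockout library lay above every wild-type library, as in 9.83% of all genes tested. Ppm1d, a phosphatase that is a p53 target and turns p53 signalling off, averaged 30.1 CPM in knockout and 41.5 CPM in wild type (log2 difference -0.46 ± 0.19, edgeR adjusted p = 0.198). Trp63, a p53 relative of stratified epithelium, had 31, 37 and 56 reads in knockout and 4, 75, 2 and 8 reads in wild type (log2 difference 0.98 ± 0.86, edgeR adjusted p = 0.554, but 3.09 and 0.00740 without wild type replicate 2). Rpl11, a ribosomal protein that binds and blocks Mdm2 under ribosomal stress, had a log2 difference of -0.29 ± 0.14 (edgeR adjusted p = 0.252). Cdkn2a, the locus of the Mdm2 inhibitor Arf, had 0, 7 and 0 reads in knockout and 1, 0, 3 and 0 reads in wild type, and Trp73, a p53 relative, had 3 to 9 reads in knockout and 4 to 8 in wild type; both were too low to test.

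Of 29 further textbook targets, 28 were found and tested; 3 fell and 0 rose (edgeR), beside 3.43% and 1.59% of all genes. At an unadjusted p under 0.05 in edgeR, 3 were higher and 5 lower, where 21.8% of all genes had such a p in either direction. DESeq2 called 1 higher and 4 lower, where it called 10.5% of all genes in either direction. The list median was 0.04, with 16 genes above 0 and 12 below. The gene that DESeq2 called higher was Perp (log2 difference 0.62 ± 0.18, edgeR adjusted p = 0.0765). Gadd45a, a growth arrest and DNA damage protein, had 19.2, 16.8 and 17.0 CPM in knockout and 58.9, 32.5, 45.5 and 37.7 CPM in wild type (log2 difference -1.30 ± 0.19, edgeR adjusted p = 0.00595). Btg2, an antiproliferative protein that recruits mRNA deadenylase, had 39.0, 30.0 and 31.8 CPM in knockout and 101, 55.4, 86.0 and 68.2 CPM in wild type (log2 difference -1.21 ± 0.19, edgeR adjusted p = 0.00896, but 0.0600 without knockout replicate 5). Rps27l, a ribosomal protein relative induced by p53, had 209, 222 and 242 CPM in knockout and 419, 343, 370 and 340 CPM in wild type (log2 difference -0.71 ± 0.11, edgeR adjusted p = 0.00786), although reads of ribosomal protein genes can be split with near copies. In these 3 genes every knockout library lay below every wild-type library, as in 10.8% of all genes tested. Over the whole list this held for 4 genes, with Sesn1 added. In 2 others, Perp and Apaf1, every knockout library lay above every wild-type library, as in 9.83% of all genes tested. Sesn1, a stress-induced inhibitor of growth signalling, averaged 37.6 CPM in knockout and 50.1 CPM in wild type (log2 difference -0.42 ± 0.11, edgeR adjusted p = 0.0543, but 0.00800 with DESeq2, 0.0443 unfiltered and 0.0497 with a filter at 5 CPM).

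**Figure D4:**
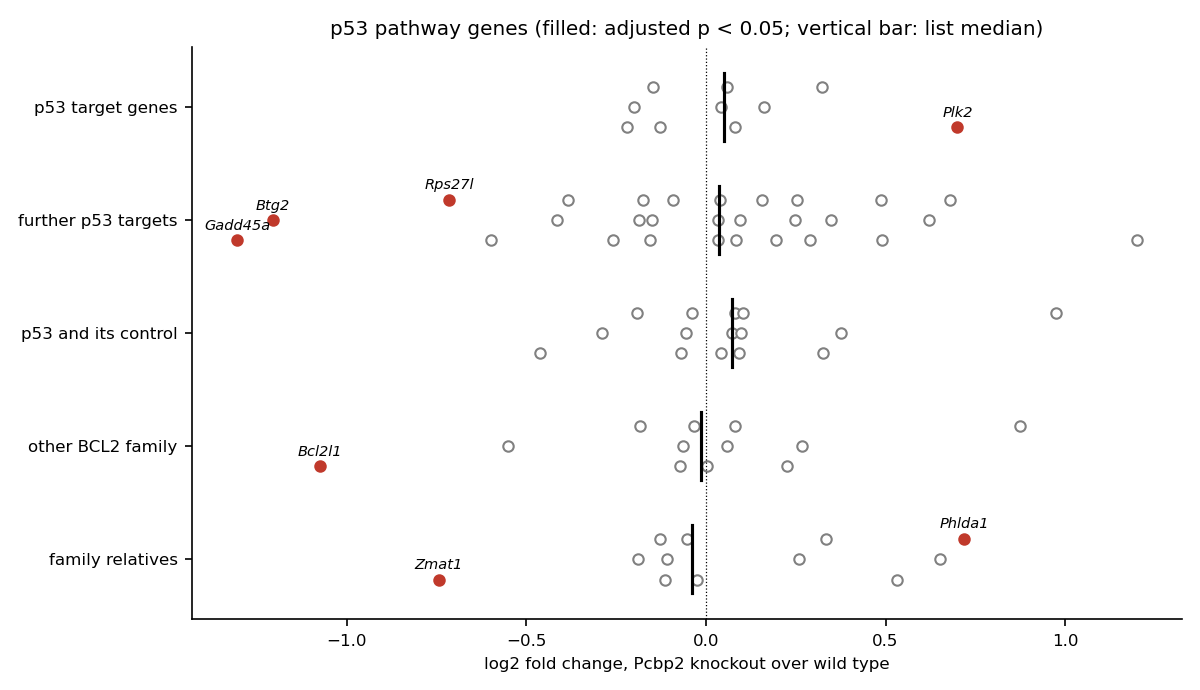
Log2 fold change, Pcbp2 knockout over wild type, of every tested gene in 5 lists of the p53 pathway; filled points passed an adjusted p of 0.05 in edgeR and short vertical lines are list medians. The list medians lie between -0.04 and 0.07, and Gadd45a (-1.30), Btg2 (-1.21) and Bcl2l1 (-1.08) lie farthest to the left.

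Among the 12 other BCL2 family genes, which set the threshold that Bax, Bbc3 and Pmaip1 act on, 1 fell and 0 rose in edgeR and limma-voom. Over all genes, edgeR called 3.43% lower and 1.59% higher, and limma-voom 4.65% in either direction. At an unadjusted p under 0.05 in edgeR, 1 was higher and 2 lower, near the 21.8% of all genes. DESeq2 called 2 lower and 0 higher, beside 10.5% of all genes in either direction. Bcl2l1, the survival protein Bcl-xL on which maturing erythroid cells depend, had 38.4, 47.2 and 47.9 CPM in knockout and 113, 84.0, 96.5 and 82.3 CPM in wild type. Every knockout library was below every wild-type library (log2 difference -1.08 ± 0.14, edgeR adjusted p = 0.00427), as in 10.8% of all genes tested. The call held in all 15 alternatives, with adjusted p up to 0.0263. Bad, a BH3-only protein, averaged 16.2 CPM in knockout and 23.7 CPM in wild type (log2 difference -0.55 ± 0.16, edgeR adjusted p = 0.0759, but 0.0159 with DESeq2). The effector Bak1 averaged 50.7 CPM in knockout and 43.3 CPM in wild type (log2 difference 0.23 ± 0.09, edgeR adjusted p = 0.173). Hrk, another BH3-only gene, stayed under 0.6 CPM in every library (edgeR adjusted p = 0.432), and DESeq2 gave no adjusted p for it.

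The fall of Gadd45a, Btg2, Rps27l and Bcl2l1 came with the fall of markers of several blood lineages: 10 of 11 erythroid markers, 4 of 4 megakaryocyte markers and 4 of 5 macrophage markers, where 3.43% of all genes tested fell. Megakaryocyte sums were 130 to 151 CPM in knockout and 251 to 348 CPM in wild type, and macrophage sums were 97.2 to 117 CPM in knockout and 157 to 200.3 CPM in wild type. Within wild type, Gadd45a and Btg2 were highest in replicate 1, then 3, then 4, then 2, which is also the order of the summed erythroid markers (88850, 71040, 62420 and 49610 CPM). Rps27l and Bcl2l1 were also highest in replicates 1 and 3, but replicate 2 lay slightly above replicate 4 in both. Within knockout, the summed erythroid markers were 15810, 11880 and 15390 CPM in replicates 3, 4 and 5. Gadd45a and Btg2 were highest in knockout replicate 3 and lowest in 4, as these sums were. Rps27l and Bcl2l1 were instead lowest in knockout replicate 3. The part of these cell types in the differences was not tested.

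Family relatives of the members that are not among the 10 gave 1 gene higher and 1 lower of 12 tested, beside 1.59% and 3.43% of all genes. Phlda1, a relative of Phlda3, had 11.1, 15.2 and 15.6 CPM in knockout and 8.46, 9.20, 7.69 and 8.65 CPM in wild type (log2 difference 0.72 ± 0.15, edgeR adjusted p = 0.0236). Zmat1, a zinc finger gene named like Zmat3, averaged 5.24 CPM in knockout and 8.75 CPM in wild type (log2 difference -0.74 ± 0.17, edgeR adjusted p = 0.0390). Both calls ended with single libraries left out: Phlda1 without wild type replicate 1 (edgeR adjusted p = 0.0506), 3 (0.0699) or 4 (0.0623) or knockout replicate 4 (0.0821) or 5 (0.131). Zmat1 was lost without wild type replicate 1 (edgeR adjusted p = 0.0567), 2 (0.0512), 3 (0.0767) or 4 (0.104), without knockout replicate 4 (0.109) or 5 (0.140), and with total-count scaling (0.0695). Plk3, a relative of Plk2, averaged 3.25 CPM in knockout and 2.06 CPM in wild type (log2 difference 0.65 ± 0.25, edgeR adjusted p = 0.155). Trp53inp2, the relative of Trp53inp1, averaged 28.0 CPM in knockout and 19.3 CPM in wild type (log2 difference 0.53 ± 0.17, edgeR adjusted p = 0.0975, but 0.0366 with DESeq2 and 0.0205 without wild type replicate 2).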

How the data were processed

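Fetal liver messenger RNA was sequenced from TruSeq stranded libraries of Trizol-extracted RNA, per the labels' protocols. The submitters' processing notes name cutadapt 1.4.2, TopHat2, HTSeq, DESeq2, DESeq and the build mm10; the settings, strand handling and annotation release used are not stated there. The authors deposited raw read counts per gene and library, followed by HTSeq summary lines, which were left out of library sizes; reads in no annotated gene made up 6.75% to 7.61% of the reads listed in knockout libraries and 4.89% to 5.94% in wild-type libraries. Their deposited table gives, per the file headers, a mean normalized signal (baseMean), a log2 fold change with its standard error, a Wald score and p-values for 15548 genes.

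The count analysis used edgeR 4.0.16 in R 4.3.3 (filterByExpr, TMM, quasi-likelihood fit with group as the only term), with limma 3.58.1 and DESeq2 1.42.0 as alternatives; intervals are at 95%. The other alternatives were globin genes left out, RLE factors, scaling to total counts, 2 other filters on low counts, a replicate block, and each library left out. The fit was tested on simulated data. There it recovered 31.3% of 1.5-fold changes, 77.6% of 2-fold changes and 98.5% of 4-fold changes, with 5 false calls among 143 calls. Libraries of 1 group differed beyond sampling noise (chi-square per degree of freedom of at least 32.1). Gene locations, overlaps and exon lengths came from GENCODE M21 on the same build, matched without identifier version. The members and lists were chosen with earlier results of these data known. Of the lists, all 10 members are named, along with each called gene, the 4 genes with the smallest p per list, and Trp53, Trp63, Trp73 and Mdm4. Perp is named as well, as the further target that DESeq2 called higher.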

Additional observations from a re-analysis of the deposited data

Results flagged for a closer look

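The 28 named genes that were checked leave out Pcbp2, Perp, Trp73, Cdkn2a, the cell type markers and the genes nearest to Plk2. In 3 of the 28, 1 wild-type library stood apart from the other 3 by more than Dixon's 95% critical value for its gap over the range. Chance gives about 1 such gene in 20. Plk2 was 50.7 CPM in wild type replicate 2 and 33.04 to 33.5 CPM in the other wild-type libraries. Without this library the log2 difference of Plk2, knockout over wild type, was 0.87 in place of 0.70. Pcbp2, outside the check, stood at 165 CPM in wild type replicate 1 and at 329 to 347 CPM in the other wild-type libraries.

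Trp63 had 0.938, 0.816 and 1.597 CPM in knockout, against 1.83 CPM in wild type replicate 2 and 0.135, 0.0547 and 0.184 CPM in wild type replicates 1, 3 and 4. Its log2 difference was 0.98 ± 0.86 with all libraries (edgeR adjusted p = 0.554) and 3.09 ± 0.48 without wild type replicate 2 (edgeR adjusted p = 0.00740), from as few as 2 reads in wild type replicate 3.

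Rpl11 was 1486 CPM in wild type replicate 4, above 1213 to 1259 CPM in the other wild-type libraries. Without this library its log2 difference was -0.22 (edgeR adjusted p = 0.491).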

How the results depend on the processing

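Of the 10 members, 9 stayed without a call in every alternative that could test them, and Plk2 kept its direction in all 15 and lost its call in 5, all of them single libraries left out. The count of members higher was 0 to 1 when single libraries were left out, and the count lower was 0 throughout. Signs changed without a call for Bax and Ccng1 when knockout replicate 3 was omitted, for Bbc3 when knockout replicate 4 was, and for Zmat3 when knockout replicate 5 or wild type replicate 4 was. With total-count scaling, all genes had a median log2 fold change of 0.14 (0.01 with TMM) and the members 0.17; it gave 651 higher genes and 393 lower, against 258 and 556 with TMM. DESeq2 gave 617 higher and 1057 lower. With single libraries left out, 24 to 418 genes were higher and 116 to 753 lower. Of the further p53 targets, 1 was higher with DESeq2 and 1 with total-count scaling, 0 to 1 with single libraries left out, and 2 to 3 were then lower. With a replicate block on the numbers in the titles, 852 genes were higher and 1204 lower, 4 further targets were higher, and Plk2 was at 0.83 (edgeR adjusted p = 6.25e-06). The block also gave calls to Mdm4 (0.43), Atr (0.39), Ppm1d (-0.47), Trp63 (2.81), Bad (-0.59) and Trp53inp2 (0.68). Both genotypes share only numbers 3 and 4, so in this fit the genotype difference and its p-values rest on replicates 3 and 4 of each genotype. Wild type replicates 1 and 2 and knockout replicate 5 add nothing to it. No label says that a number marks shared animals, litters or days. The deviations of same-numbered libraries from their group means correlated at 0.373 and 0.341 across genes, and those of differently numbered pairs at -0.384 to 0.168. Deviations within a group sum to 0, which constrains these correlations. Low counts limit what can be said of Bbc3, Pmaip1, Trp63, Trp73, Hrk and Cdkn2a. The causes were not tested.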
